A study of Mus musculus with 6 samples.

Results

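B cells and T follicular helper (Tfh) cells communicate through surface proteins that meet at their contact, and 10 genes that encode such proteins on the B cell were examined here in germinal center (GC) B cells that had or lacked HVEM. The genes were chosen by name from what they encode: the receptor for CD40 ligand (*Cd40*), the CD28 and CTLA-4 ligands (*Cd80*, *Cd86*), the ICOS ligand (*Icosl*), the PD-1 ligands (*Cd274*, *Pdcd1lg2*), the LFA-1 ligands (*Icam1*, *Icam2*) and 2 members of the SLAM family (*Slamf1*, *Slamf6*). The choice was made with earlier results of these data known. All 10 were among the 23337 genes of the deposited table, and all 10 had enough reads to be among the 9653 genes tested. HVEM, encoded by *Tnfrsf14*, is itself a contact molecule that engages BTLA on the T cell, and the comparison asks whether its loss was accompanied by a change in the transcripts of the other contact molecules of the same cell.

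RNA was sequenced from GC B cells of mixed bone marrow chimeras, with 3 samples per genotype that the labels number 1, 3 and 5 for WT and 2, 4 and 6 for *Hvem*-/-. The WT donor line was C57BL/6 CD45.1/2 in the labels and CD45.1 in the study's text, and the *Hvem*-/- donor line was C57BL/6 CD45.2. All chimeras were reconstituted for 8 weeks and immunized with NP-CGG in alum, and 50000 cells per sample were sorted at day 11 as B220+, GL7+ and Fas+ cells with low IgD and CD38. The study states that both genotypes were sorted from the same chimeras, so WT and *Hvem*-/- samples shared host mice, but which WT sample shared a host with which *Hvem*-/- sample was not given in the sources used here. Its general methods give adult C57BL/6 CD45.1 mice as chimera hosts unless another host is named, and the choice among its *Hvem*-deficient lines for this experiment was not given. The labels name the second genotype as a knockout of HVEM and give no Cre driver, and genotype coincided with donor line in all 6 samples, so that loss of HVEM and other differences between the lines cannot be told apart.

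A GC B cell takes up antigen, presents it on MHC class II and competes for help from Tfh cells. CD80 and CD86 give the costimulatory signal through CD28, ICOSL engages ICOS, and CD40 receives the CD40 ligand that the T cell brings to the contact. PD-L1 and PD-L2 give an inhibitory signal through PD-1, ICAM-1 and ICAM-2 hold the cells together by binding the integrin LFA-1, and SLAM family receptors, most of which bind their own kind on the opposite cell, signal through the adaptor SAP in T cells and make B-T contacts last.

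The deposited values were normalized read counts, that is, reads per gene divided by a size factor for each sample, and the reads behind them could be recovered exactly. The samples held 2505918 to 3636163 reads in genes. *Tnfrsf14* had 13, 11 and 17 reads in the WT samples and 0, 0 and 4 reads in the *Hvem*-/- samples (replicates 2, 4 and 6). The B cell gene *Ms4a1* (2437 to 4266 reads) and the GC gene *Bcl6* (2324 to 3641 reads) were read deeply in every sample. Markers of other cell types were read too, although the sort selects against T cells and follicular B cells, and several of these genes can be expressed by GC B cells themselves. The 12 T cell markers together made up 197 to 209 CPM (counts per 1000000 reads) in WT and 105 to 161 CPM in *Hvem*-/- samples, without overlap, and 8 markers of follicular B cells made up 354 to 442 CPM and 266 to 292 CPM. The 15 myeloid and dendritic cell markers overlapped (123 to 183 CPM in WT and 75.0 to 241 CPM in *Hvem*-/- samples), and among the defining ones *Lyz2* had 31 to 126 reads, *Itgam* 27 to 130 and *Csf1r* 8 to 33, while *Cd14*, *Fcgr1* and *Cd209a* had at most 1 read in any sample. The 6 plasma cell markers made up 604 to 766 CPM in WT and 584 to 652 CPM in *Hvem*-/- samples, with *Tnfrsf17* at 0 in all. The 12 B cell and GC markers made up 5459 to 5914 CPM in WT and 5226 to 5521 CPM in *Hvem*-/- samples, with overlap. At an unadjusted p under 0.05 from edgeR, 4 of these 12 were lower in *Hvem*-/- samples and 1 was higher. The log2 fold changes were -0.45 for *Cd79a*, -0.35 for *Cd79b*, -0.30 for *Pax5*, -0.31 for *S1pr2* and 0.86 for *Rgs13*.

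None of the 10 contact molecules differed between *Hvem*-/- and WT GC B cells at an adjusted p under 0.01 in edgeR's quasi-likelihood test, the threshold that 0.218% of all tested genes passed (0.186% higher and 0.0311% lower). Of single genes with unadjusted p under 0.05, *Slamf6* was higher and *Pdcd1lg2* and *Icam2* were lower in *Hvem*-/- cells, 3 of 10 genes beside 11.9% of all tested genes (6.72% higher and 5.22% lower), and DESeq2 and limma also gave 1 higher and 2 lower. The median log2 fold change of the 10 genes was -0.04, against -0.01 over all tested genes, with 5 above 0 and 5 below. By the deposited normalized counts, *Slamf1* and *Slamf6* were higher in every *Hvem*-/- than in every WT sample and *Icam2* and *Pdcd1lg2* were lower, 4 of 10 genes beside 16.8% of all tested genes (8.74% higher and 8.09% lower). In bulk samples such as these, fewer cells of a type and less RNA per cell cannot be told apart.

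**Figure D1:**
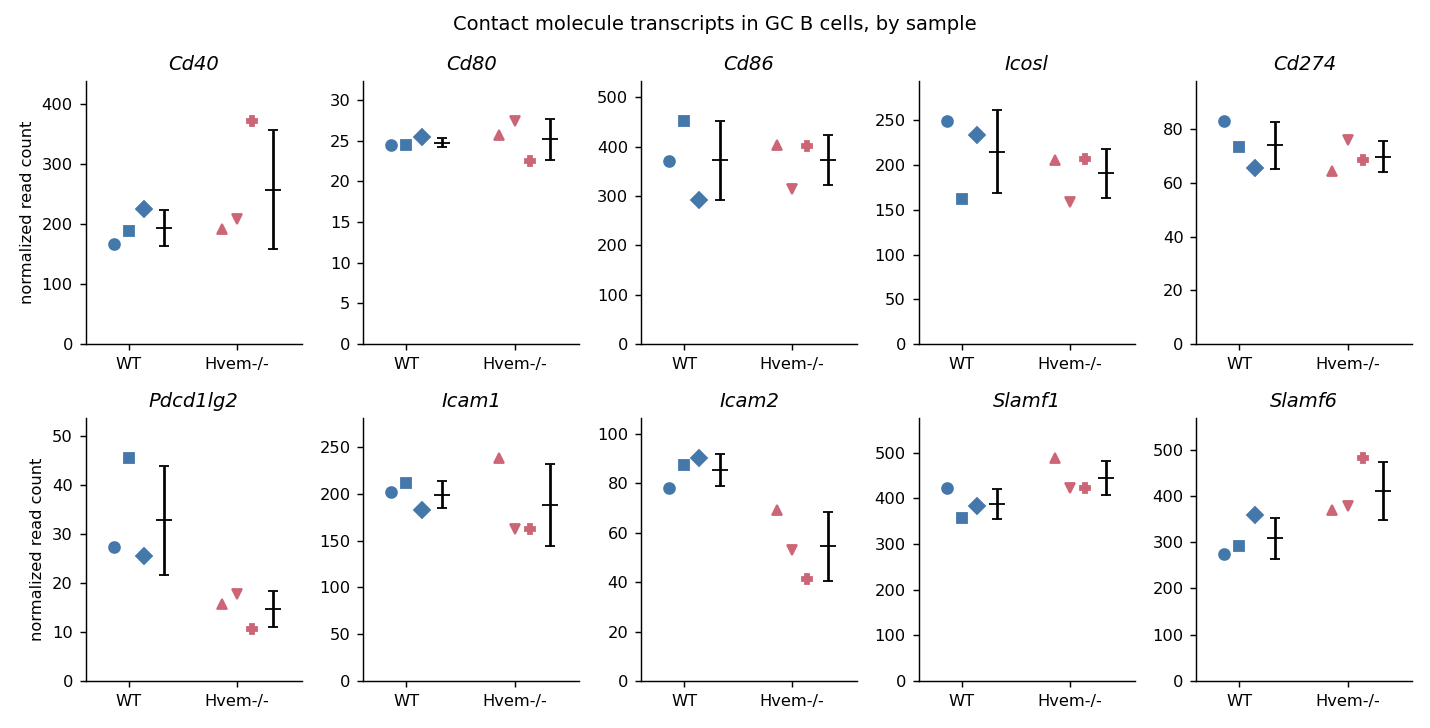
Normalized read counts (y axis, from 0) of the 10 genes in 3 WT (blue) and 3 *Hvem*-/- (red) samples, each marker shape being 1 sample, in the order of replicates 1, 3, 5 and 2, 4, 6, with the mean and SD in black. The genotypes separated for *Pdcd1lg2* and *Icam2* (lower in *Hvem*-/- cells), for *Slamf6* (higher) and by a margin under 1 normalized count for *Slamf1*, and *Cd40* was raised in *Hvem*-/- replicate 6 alone.

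For genes whose samples separated, the sequence before the start of transcription is shown as context, since such a stretch is where regulators of these genes would bind. RefSeq promoters (build GRCm38.p6) were given for 7 of the 10 genes, among them *Slamf6*, *Slamf1* and *Pdcd1lg2* but not *Icam2*. The 250 bases before the start, on the plus strand in all 3 genes, lie at chr1:171917212-171917461 for *Slamf6*, chr1:171766882-171767131 for *Slamf1* and chr19:29410669-29410918 for *Pdcd1lg2*. Capitals mark matches to TTC and GAA spaced by any 4 bases, the repeat that STAT6, the transcription factor activated by IL-4, binds best.
Slamf6: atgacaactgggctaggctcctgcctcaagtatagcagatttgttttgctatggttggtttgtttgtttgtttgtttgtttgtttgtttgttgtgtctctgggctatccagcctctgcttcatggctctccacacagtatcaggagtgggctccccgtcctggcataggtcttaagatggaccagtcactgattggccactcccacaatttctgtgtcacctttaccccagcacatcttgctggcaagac
Slamf1: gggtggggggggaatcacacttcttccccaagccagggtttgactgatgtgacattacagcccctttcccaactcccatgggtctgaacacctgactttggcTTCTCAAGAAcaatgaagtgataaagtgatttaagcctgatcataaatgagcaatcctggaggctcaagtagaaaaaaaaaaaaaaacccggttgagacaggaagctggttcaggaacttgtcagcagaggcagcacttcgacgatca
Pdcd1lg2: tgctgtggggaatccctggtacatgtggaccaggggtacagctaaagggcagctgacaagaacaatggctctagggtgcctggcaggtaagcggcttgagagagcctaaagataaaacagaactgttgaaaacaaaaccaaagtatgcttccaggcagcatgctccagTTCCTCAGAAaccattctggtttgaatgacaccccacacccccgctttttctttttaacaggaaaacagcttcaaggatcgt

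The match in *Pdcd1lg2* (TTCCTCAGAA) lay 82 to 73 bases before the start and that in *Slamf1* (TTCTCAAGAA) 148 to 139 bases before it. These letters, searched on both strands, stood in 5.85% of the 32851 promoter windows of the same length. The same repeat with a spacing of 3 bases, searched the same way, was held by 7.02% of windows and among these genes by *Icam1* alone (TTCCCGGAA, 42 to 34 bases before its start). The NF-kB pattern GGG, any 3 bases and TTCC, held by 4.65% of windows, was in none of the 7. A match is a stretch of letters and does not show binding.

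*Cd40* encodes the TNF receptor family member through which Tfh cells drive B cell survival and division. Its position in GRCm38, the build of all coordinates here, is chromosome 2 from 165055627 to 165072948. WT replicates 1, 3 and 5 had 166, 189 and 226 normalized counts, and *Hvem*-/- replicates 2, 4 and 6 had 192, 208 and 371, the order kept for all genes that follow. The first 2 *Hvem*-/- samples lay inside the WT range and the last lay above all others, so the groups overlapped. The fold was 1.31 (95% interval 0.966 to 1.79, adjusted p = 0.488 from edgeR), and without *Hvem*-/- replicate 6 the log2 fold change was 0.04 in place of 0.39. The spread between *Hvem*-/- samples (coefficient of variation 38.6%) was wider than that between WT samples (15.5%) and than counting error at this depth (6.63%).

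The genes through which CD40 signals were taken as a list of 8, and none passed the test, while by unadjusted p under 0.05 there were 2 higher and 0 lower, beside 6.72% and 5.22% of all tested genes. The median log2 fold change was 0.04. The 2 were *Birc3*, which encodes a ubiquitin ligase of the CD40 complex (log2 fold change 0.29, adjusted p = 0.327 from edgeR), and *Traf6*, an adaptor that binds the CD40 tail (0.29, adjusted p = 0.401 from edgeR). Both were higher in every *Hvem*-/- than in every WT sample, as were 8.74% of all tested genes.

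Of the 2 CD28 ligands, *Cd86* was by far the more abundant transcript. *Cd86*, on chromosome 16 from 36603869 to 36666081, had 372, 452 and 293 normalized counts in WT, against 404, 314 and 401 in *Hvem*-/- samples. The highest and the lowest of the 6 were both WT samples, and the *Hvem*-/- values fell between them. The fold was 1.002 (95% interval 0.792 to 1.27, adjusted p = 0.997 from edgeR). Folds within that interval remain compatible with these samples, and the interval is not a limit of detection. *Cd80*, on the same chromosome from 38455561 to 38496335, was at 24.4, 24.4 and 25.4 normalized counts in WT, against 25.6, 27.4 and 22.5 in *Hvem*-/- samples, from 19 to 34 reads each. Its fold was 1.01 with the wide interval of 0.571 to 1.80 (adjusted p = 0.989 from edgeR). The WT samples agreed within a coefficient of variation of 2.29%, less than the 19.7% that counting alone gives at this depth, so that agreement does not measure precision.

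*Icosl*, on chromosome 10 from 78069302 to 78083913, encodes the ligand of the costimulator ICOS, which Tfh cells need for their maintenance. The WT samples had 249, 162 and 233 normalized counts of it, and the *Hvem*-/- samples 206, 159 and 207. WT replicate 3 sat with the lowest *Hvem*-/- sample and apart from the other WT samples. The fold was 0.879 (95% interval 0.670 to 1.15, adjusted p = 0.747 from edgeR), and its log2 fold change of -0.19 became -0.35 without WT replicate 3, -0.07 without WT replicate 1, -0.06 without *Hvem*-/- replicate 4 and -0.05 with an offset for GC content and length, none of them a call.

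The 2 PD-1 ligand genes lie side by side on chromosome 19, *Cd274* from 29367455 to 29388095 and *Pdcd1lg2* from 29410919 to 29471161. *Pdcd1lg2*, which encodes PD-L2, had 28, 41 and 34 reads in the WT samples, against 14, 20 and 9 reads in the *Hvem*-/- ones. As normalized counts these were 27.3, 45.5 and 25.4 in WT, against 15.6, 17.7 and 10.6 in *Hvem*-/- samples, each *Hvem*-/- value below each WT value. The fold of 0.455 was the one farthest from 1 among the 10 genes, with a 95% interval of 0.239 to 0.866 and an adjusted p = 0.305 from edgeR (unadjusted p = 0.0188). Pooled reads over total reads in *Hvem*-/- over WT samples gave a ratio of 0.451 (exact Clopper-Pearson 95% interval 0.309 to 0.650, counting error only). The log2 fold change was -1.14, and without WT replicate 3, the highest sample, it was -0.84 (adjusted p = 0.576 from edgeR).

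*Cd274*, which encodes PD-L1, had 83.0, 73.2 and 65.7 normalized counts in WT, against 64.6, 75.9 and 68.6 in *Hvem*-/- samples. The values of the genotypes were interleaved. Exons of *Cd274*, and those of *Icam1*, overlap an antisense gene that was not among the table's genes, and whether counting used strand was not given in the sources used here. The fold of *Cd274* was 0.942 (95% interval 0.664 to 1.34, adjusted p = 0.921 from edgeR). The ratio of *Cd274* to *Pdcd1lg2*, both taken per transcript length, was 0.768 to 1.45 in WT and 1.98 to 3.08 in *Hvem*-/- samples. These ranges did not overlap, although the *Pdcd1lg2* reads behind them were few. *Pdcd1lg2* alone already separated the genotypes, so the ratio is not a further result.

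*Icam1*, on chromosome 9 from 21015985 to 21028817, and *Icam2*, on chromosome 11 from 106377656 to 106388075, encode ligands of LFA-1 that differ in regulation, the first being induced on activation and the second held by resting lymphocytes. *Icam2* had 78.1, 87.7 and 90.4 normalized counts in WT, against 69.1, 53.0 and 41.4 in *Hvem*-/- samples. Every *Hvem*-/- sample was below every WT sample, and *Hvem*-/- replicate 6 was the lowest. The fold was 0.637 (95% interval 0.438 to 0.926, adjusted p = 0.313 and unadjusted p = 0.0204 from edgeR), and the same pooled ratio was 0.606 (exact Clopper-Pearson 95% interval 0.496 to 0.740). Without *Hvem*-/- replicate 6 the log2 fold change was -0.49 in place of -0.65 (adjusted p = 0.677 from edgeR). An offset for GC content and length gave -0.51 (unadjusted p = 0.0540 from edgeR). T cells and follicular B cells carry ICAM-2 as well, and the summed markers of both were lower in the *Hvem*-/- samples (105 to 161 against 197 to 209 CPM for 12 T cell markers, none at 0 in all samples, and 266 to 292 against 354 to 442 CPM for 8 follicular B cell markers). Their part in this difference was not tested.

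*Icam1* had 202, 212 and 183 normalized counts in WT, against 238, 162 and 162 in *Hvem*-/- samples. *Hvem*-/- replicate 2 was the highest of all samples and the other *Hvem*-/- samples were the lowest. The fold was 0.940 (95% interval 0.721 to 1.23, adjusted p = 0.890 from edgeR). Its log2 fold change of -0.09 became -0.30 without *Hvem*-/- replicate 2 (adjusted p = 0.492 from edgeR). Of the myeloid markers, that sample had the most reads of *Lyz2* (126), *Itgam* (130) and *Csf1r* (33) but not of *Cd68* or *Flt3*. The part of myeloid cells in the *Icam1* values was not tested. Per transcript length, *Icam1* over *Icam2* was 1.02 to 1.31 in WT and 1.55 to 1.98 in *Hvem*-/- samples, without overlap. *Icam2* alone already separated the genotypes, so this ratio is not a further result.

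**Figure D2:**
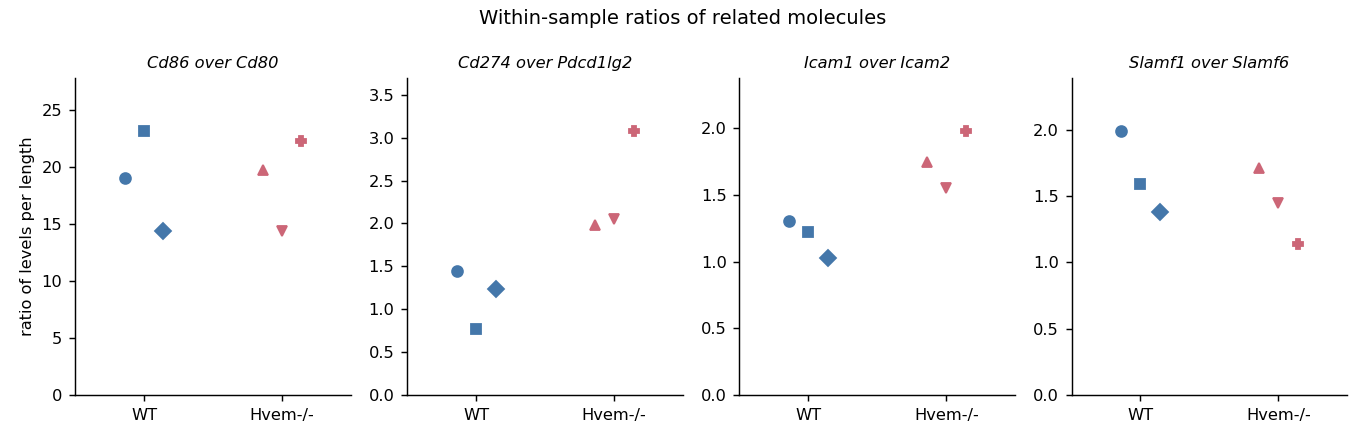
Ratio of the levels per transcript length of 2 related genes within each sample (y axis, from 0), for 3 WT (blue) and 3 *Hvem*-/- (red) samples, each marker shape being 1 sample. The *Cd274* to *Pdcd1lg2* ratio separated the genotypes (0.768 to 1.45 against 1.98 to 3.08). So did *Icam1* to *Icam2* (1.02 to 1.31 against 1.55 to 1.98), while *Cd86* to *Cd80* and *Slamf1* to *Slamf6* overlapped. *Pdcd1lg2* and *Icam2* already separated the genotypes by themselves, so these ratios are not a further result.

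*Slamf6* and *Slamf1* encode SLAM receptors and lie in 1 cluster on chromosome 1, *Slamf6* from 171917515 to 171953170 and *Slamf1* from 171767127 to 171801184. *Slamf6*, which encodes Ly108, had 275, 291 and 359 normalized counts in WT, against 369.8, 379 and 482 in *Hvem*-/- samples. All *Hvem*-/- samples were above all WT samples, with WT replicate 5 and *Hvem*-/- replicate 2 close to each other. The fold was 1.32 (95% interval 1.06 to 1.65, adjusted p = 0.295 and unadjusted p = 0.0169 from edgeR). Without *Hvem*-/- replicate 6 the log2 fold change was 0.27 in place of 0.40 (adjusted p = 0.702 from edgeR). T cells carry Ly108 too, while the T cell markers were lower, not higher, in the *Hvem*-/- samples.

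*Slamf1*, which encodes CD150, had 422.8, 357.3 and 383.1 normalized counts in WT, against 489.0, 423.0 and 423.3 in *Hvem*-/- samples. The highest WT sample and the lowest *Hvem*-/- sample were nearly equal, and on the CPM scale used for the test the groups overlapped. The fold was 1.14 (95% interval 0.938 to 1.39, adjusted p = 0.614 from edgeR). The transcripts of *Slamf1* (40.6% GC, percentile 9.03 of tested genes) and *Slamf6* (43.0% GC, percentile 18.4) are low in GC content. With an offset for GC content and length, the log2 fold change of *Slamf1* was 0.04 in place of 0.19 and that of *Slamf6* was 0.27 in place of 0.40. The unadjusted p of *Slamf6* from edgeR was then 0.0699.

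In the same cluster, the log2 fold changes of the tested SLAM genes followed their order on the chromosome. They ran from -0.10 for *Ly9*, 0.10 for *Slamf7*, 0.15 for *Cd48* and 0.19 for *Slamf1* to 0.24 for *Cd84* and 0.40 for *Slamf6*. None passed the test (adjusted p = 0.295 to 0.843 from edgeR), and the intervals of neighbours overlapped. *Cd244*, at the near end, had 0 to 11 reads and was not tested. With the offset for GC content and length, the order on the chromosome was not kept. *Slamf7* (0.07) was then above *Cd48* (0.0056), *Slamf1* (0.04) and *Cd84* (0.05). These were near 0, *Ly9* was at -0.06 and *Slamf6* at 0.27. *Ptprc*, the CD45 gene that distinguishes the donor lines, lies on the same chromosome, 33.7 Mb from *Slamf6*, and a difference of the lines in this stretch and loss of HVEM cannot be told apart.

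**Figure D3:**
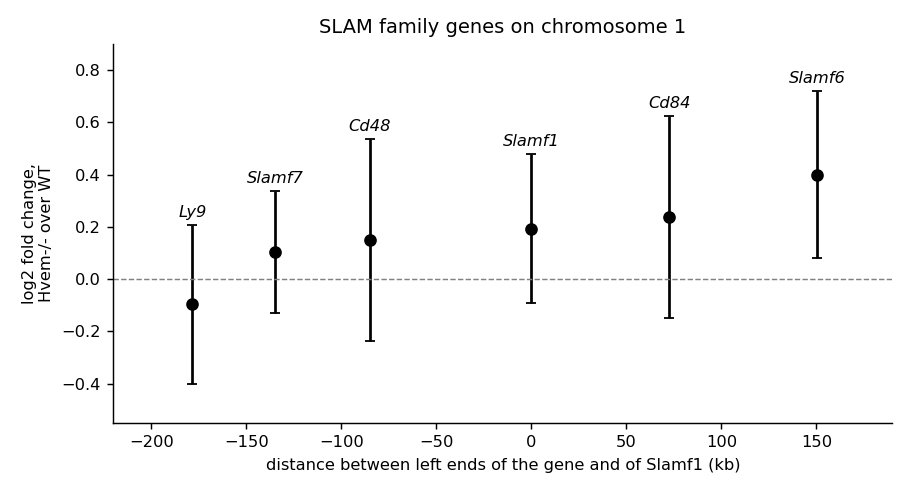
Log2 ratio of *Hvem*-/- to WT (y axis, points, with 95% intervals from edgeR) of 6 SLAM family genes against the distance in kb of their left ends from that of *Slamf1* (x axis). The estimates ran from -0.10 for *Ly9* to 0.40 for *Slamf6*, and the interval of *Slamf6* alone lay above 0.

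Of the SLAM adaptors and partners, a list of 7 genes, 5 were tested and none passed (median log2 fold change -0.11). *Fyn*, the kinase that SAP brings to SLAM receptors, had 187, 168 and 248 reads in the WT samples, against 126, 145 and 72 in the *Hvem*-/- ones, with -0.65 as its log2 fold change (edgeR, adjusted p = 0.199). T cells express *Fyn* too, and the part of the lower T cell markers in this difference was not tested. *Sh2d1b1*, which encodes the adaptor EAT-2, had 0.65 as its log2 fold change (edgeR, adjusted p = 0.343). *Sh2d1a*, the gene of SAP, had at most 8 reads in any sample. The phosphatase genes *Ptpn6* (SHP1, -0.20) and *Ptpn11* (SHP2, -0.11) did not pass either (adjusted p = 0.594 and 0.813 from edgeR).

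**Figure D4:**
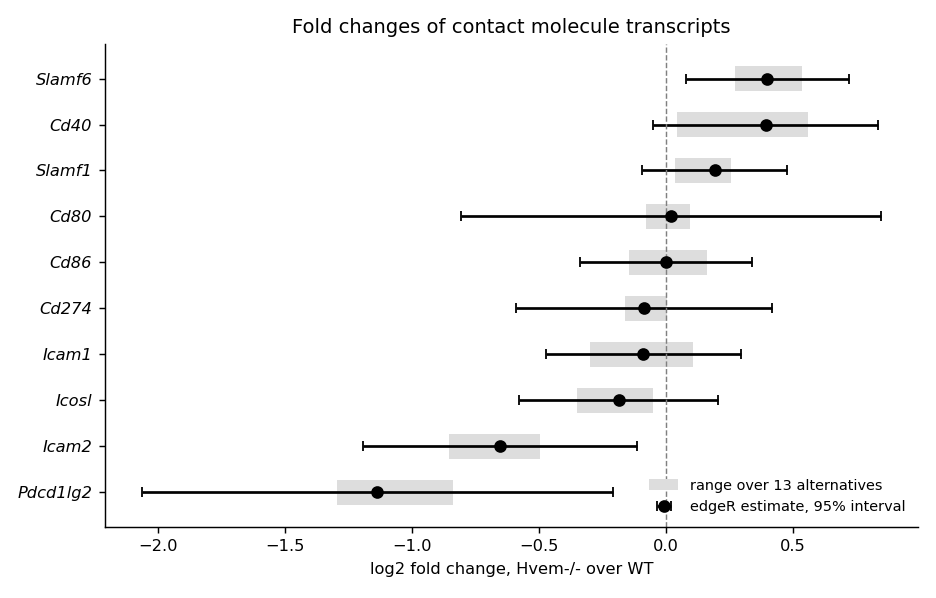
Log2 ratio of *Hvem*-/- to WT for the 10 genes (x axis), as the edgeR estimate with its 95% interval (points and lines, 3 samples per genotype) and as the range of the estimate over 13 other ways of processing (grey bars). Only *Slamf6*, *Icam2* and *Pdcd1lg2* had unadjusted intervals that left out 0, and the grey bars of *Cd80*, *Cd86*, *Cd274* and *Icam1* reached both sides of 0.

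Levels of different genes were compared as RPKM, that is, CPM without TMM scaling divided by the length of the longest transcript in kb. *Cd86* was the most abundant of the 10 with a mean of 51.8 RPKM over the 6 samples (range 42.2 to 62.7), higher than 88.4% of tested genes in WT cells, and its range lay above that of the next gene, *Slamf1* (33.3 RPKM, range 28.5 to 39.6). *Slamf1*, *Icam1* (27.0), *Cd40* (26.5), *Icosl* (25.5), *Slamf6* (22.1) and *Icam2* (19.4) formed a middle group in which each overlapped its neighbour. A gap followed, since the lowest *Icam2* sample (10.9 RPKM) was above the highest *Cd274* sample (8.32 RPKM). *Cd274* (7.01), *Pdcd1lg2* (4.87) and *Cd80* (2.78) came last, again each overlapping its neighbour, and *Cd80* was higher than only 14.4% of tested genes in WT cells. *Cd86* exceeded *Cd80* by 14.4 to 23.1 times in WT and by 14.4 to 22.3 times in *Hvem*-/- samples. With the summed exon length of each gene in place of the longest transcript, *Icam1* and *Cd40* changed places, as did *Slamf6* and *Icam2*. The gap below *Icam2* was then gone, since its lowest sample (7.34 RPKM) was under the highest *Cd274* sample (8.32 RPKM), and the highest *Cd40* sample (36.8 RPKM) was above the lowest *Cd86* sample (29.3 RPKM).

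**Figure D5:**
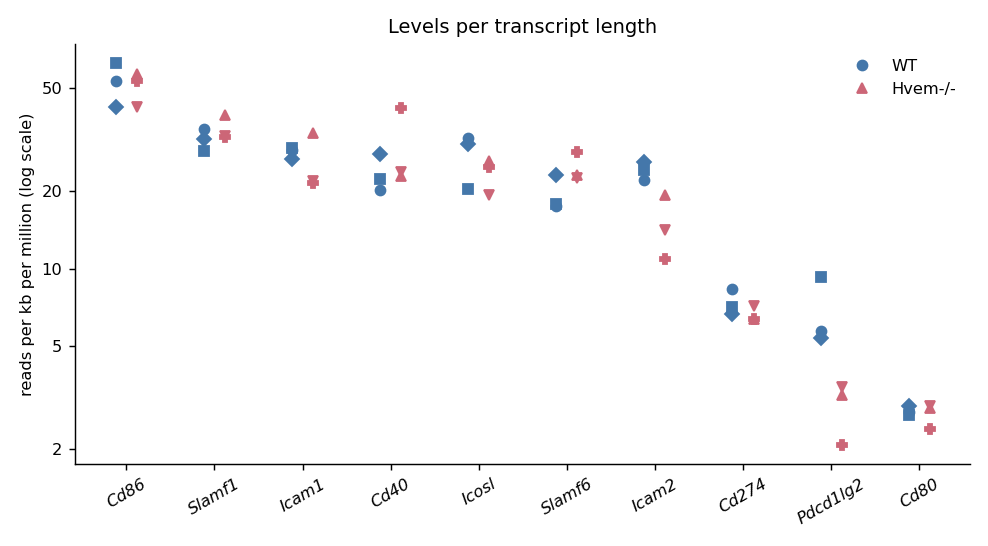
RPKM (y axis, log scale) of the 10 genes, ordered by their mean over 6 samples, in 3 WT (blue) and 3 *Hvem*-/- (red) samples, each marker shape being 1 sample. *Cd86* stood above all others (42.2 to 62.7), 6 genes overlapped in the middle, and *Cd274*, *Pdcd1lg2* and *Cd80* lay below 10.

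The genes also varied together across samples, which is a description over 6 samples that share depth, sorting and genotype. *Cd40* and *Slamf6* were the most alike of the 45 pairs (Pearson r = 0.89 of log2 CPM), followed by *Pdcd1lg2* and *Icam2* (0.84), while *Pdcd1lg2* and *Slamf6* were the most opposed (-0.88). *Hvem*-/- replicate 6 was the lowest sample for 4 of the 10 genes (*Cd80*, *Pdcd1lg2*, *Icam1* and *Icam2*) and the highest for 2 (*Cd40* and *Slamf6*). That sample also had the lowest summed T cell markers (105 CPM). Among the genes most like the 3 deepest members over the 6 samples were *Tec* for *Slamf1* (r = 0.999), *Lima1* for *Cd86* (0.983) and *6230409E13Rik* for *Slamf6* (0.995), and 53, 28 and 156 of 9643 other genes had an r above 0.9 with these members, respectively.

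Other genes of the B-T contact were taken as a list of 30 names, of which 27 were in the table and 19 could be tested. None passed, while by unadjusted p under 0.05 there were 1 higher and 3 lower, beside 6.72% and 5.22% of all tested genes. The median log2 fold change was -0.03. One of the 3 was *Tnfrsf14* itself (log2 fold change -3.04, adjusted p = 0.178 from edgeR), the gene that defines the genotypes. The others were *Cd72*, which encodes an inhibitory coreceptor of B cells (122, 84 and 177 reads in the WT samples, against 78, 101 and 33 in the *Hvem*-/- ones, log2 fold change -0.68, adjusted p = 0.313 from edgeR), and *Pvr*, a ligand of TIGIT (-1.09, adjusted p = 0.378 from edgeR). *Itga4*, the integrin chain that binds VCAM-1, was the one higher (0.29, adjusted p = 0.410 from edgeR).

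The T cell partners of these molecules were read at low depth in the sorted cells. *Cd40lg* had 5 to 16 reads per sample and *Pdcd1* had 0 to 6. *Cd28*, the receptor of CD80 and CD86, had 46, 49 and 84 reads in the WT samples, against 26, 37 and 11 in the *Hvem*-/- ones, with -1.10 as its log2 fold change (edgeR, adjusted p = 0.213). *Cd3e*, a defining T cell gene, had 109, 114 and 163 reads in the WT samples, against 70, 77 and 43 in the *Hvem*-/- ones (-0.85, adjusted p = 0.126 from edgeR).

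Light zone GC B cells, which meet Tfh cells, were represented by a list of 13 genes, of which *Fcer2a*, the gene of CD23, fell (log2 fold change -1.01, adjusted p = 0.00704 from edgeR), none rose, and the median of the 11 tested was 0.03. Of 10 dark zone genes, *Mki67* (log2 fold change 0.92, adjusted p = 0.000330 from edgeR) and *Ccnb1* (0.79, adjusted p = 0.00475 from edgeR) rose, both genes of dividing cells, none fell, and the median was 0.37. By unadjusted p under 0.05 from edgeR, 5 dark zone genes were higher and 1 was lower. *Cxcr4*, the chemokine receptor that places cells in the dark zone, was lower in every *Hvem*-/- sample without passing the test (log2 fold change -0.36, adjusted p = 0.310 and unadjusted p = 0.0194 from edgeR). None of the 3 calls held without WT replicate 1 (adjusted p = 0.182 for *Fcer2a*, 0.0373 for *Mki67* and 0.118 for *Ccnb1* from edgeR). Over 13 alternatives the call was made in 7 for *Fcer2a*, 12 for *Mki67* and 8 for *Ccnb1*, with the direction kept in all.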

How the data were processed

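RNA was amplified with the Ovation RNA-seq System V2 and sequenced on a HiSeq. The authors deposited a table of normalized signal values, reads per gene divided by a size factor per sample. The study's methods name STAR and DESeq2, and the submitters' processing notes name CASAVA, TopHat2 2.0.8b, Cufflinks 2.1.1 and mm10. The authors' own comparison columns (mean, log2 fold change, its standard error, statistic, p and adjusted p) were not used.

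All deposited values were whole multiples of 1 value per sample (relative tolerance 1e-06), and the multiples were taken as reads. Genes with enough reads by edgeR's filter were tested with its quasi-likelihood test (edgeR 4.0.16, limma 3.58.1, R 4.3.3) after TMM scaling, on 3 WT and 3 *Hvem*-/- samples without covariates, with Benjamini-Hochberg adjustment over all 9653 genes and a threshold of 0.01. This count test replaced one on the signal scale because reads could be recovered. Alternatives were DESeq2 1.42.0, upper-quartile scaling, no filter, a CPM of 5 in at least 3 samples, limma on log2(value + 1) and log2(value + 5), an offset for GC content and length, and leaving out each sample. The fit was tested on simulated data. Positions and lengths are from GENCODE vM21 on GRCm38, and promoters from RefSeq.

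Named genes were the 10 genes, *Tnfrsf14*, in each other list those past the threshold or at most the 4 with the smallest p, and the genes most like the 3 members with the most reads. Cell type markers, untested list members and the other genes of the SLAM cluster are named as well. Members and lists were chosen with earlier results of these data known. The genotypes came from the same chimeras, but which samples share a mouse was not given, so the fit is unpaired. Nothing says that replicates of a genotype came from separate mice, so p-values measure only the spread between these samples. Counting intervals cover counting error only.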

Additional observations from a re-analysis of the deposited data

How the results depend on the processing

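None of the 10 genes passed the threshold under any alternative, including DESeq2, limma and an adjusted p under 0.05. The sign of the log2 fold change was kept in all alternatives for *Cd40*, *Icosl*, *Pdcd1lg2*, *Icam2*, *Slamf1* and *Slamf6*. It turned for *Cd80* (-0.0046 with upper-quartile factors, -0.079 with the GC content and length offset, -0.043 to 0.098 leaving out 1 sample) and *Cd86* (-0.020, -0.089 and -0.14 to 0.16 in the same order). It also turned for *Cd274* (-0.16 to 0.0040 leaving out 1 sample) and *Icam1* (0.11 with the offset, -0.30 to 0.012 leaving out 1 sample). The cause was not tested. An unadjusted p under 0.05 was kept in 12 of 13 alternatives for *Pdcd1lg2* and in 9 of 13 for *Icam2* and *Slamf6*. Under the offset for GC content and length, *Pdcd1lg2* alone of the 10 genes kept it (0 higher and 1 lower). *Cd40* was at 0.04 without *Hvem*-/- replicate 6. Among the other lists 3 genes passed, 1 with the offset and 0 to 4 leaving out 1 sample (0 without WT replicate 1, 1 without WT replicate 3 or *Hvem*-/- replicate 4). Of all genes 21 passed, 52 by DESeq2, 84 without a filter, 12 with the offset, and 3 to 31 leaving out 1 sample. With the summed exon length the WT levels in RPKM were 2.41 for *Cd80*, 36.6 for *Cd86*, 16.8 for *Icosl*, 16.5 for *Icam1*, 16.2 for *Icam2*, 22.8 for *Slamf1* and 10.3 for *Slamf6*. No paired analysis was possible because the labels share no replicate number between the genotypes: both came from the same chimeras, but which samples share a mouse was not given, and all p-values are from an unpaired fit. *Cd80* and *Pdcd1lg2*, with 154 and 146 reads in all, are limited most by depth.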
